A study of Mus musculus with 79 samples.

Results

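The genes followed here are Scgb1a1, Scgb3a1, Bpifa1, Pigr, Slurp1, Lcn2, Reg3g and Saa3. They encode proteins that airway epithelium can secrete, or use to carry antibody, in the defence of its surface. Which cells of these lungs made each protein's RNA was not tested. The genes were chosen by symbol, and each of the 8 had 1 row among the 31350 rows of an array table of whole mouse lung. The lungs came from WT mice and from Scnn1b-tg littermates (βENaC mice), all C57BL/6J and 5 to 7 weeks old. βENaC mice overexpress the β subunit of the epithelial sodium channel in airway epithelium, from a transgene under the promoter of the club cell secretory protein, and their airway surface is dehydrated and chronically inflamed. Males and females were exposed for 1 or 5 days to smoke of 6 cigarettes per day or to room air (sham), and lungs were frozen 4 hours after the last exposure. There were 20 smoke and 20 sham mice at 1 day and 19 smoke and 20 sham mice at 5 days. By genotype there were 20 WT and 20 βENaC mice at 1 day and 20 WT and 19 βENaC mice at 5 days. The 16 groups of genotype, exposure, sex and duration held 4 to 6 mice, and the 8 groups of genotype, exposure and duration held 9 to 11.

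The fluid that lines the airways carries proteins that bind microbes, keep iron from them or limit inflammation. Club cells are the main source of the secretoglobins Scgb1a1 and Scgb3a1, and the epithelium of larger airways secretes Bpifa1, which binds lipids and also restrains the epithelial sodium channel. Pigr moves polymeric immunoglobulin from the tissue to the lumen, Reg3g is a lectin active against Gram-positive bacteria, Lcn2 captures bacterial siderophores, Saa3 is an acute-phase protein made in the tissue itself, and Slurp1 is a secreted protein of the Ly6 family that acts on nicotinic acetylcholine receptors.

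Every value is a log2 intensity from 1 array per mouse, after the normalization of the authors. Scnn1b lay between 8.42 and 9.47 in WT mice and between 11.52 and 11.88 in βENaC mice, although 1 mouse had been moved to WT in the authors' code because of this gene, so it is no check of that label. Cyp1a1, which smoke induces through the aryl hydrocarbon receptor, lay between 5.43 and 8.98 in sham mice and between 9.96 and 11.59 in smoke mice. The titles and the source names gave different genotypes for 13 mice, all WT smoke mice by title and βENaC by source name: 4 of 5 females at 1 day, all 5 females at 5 days and all 4 males at 5 days. The titles were used, so each WT smoke value at 5 days rests on them. Scnn1b lay between 8.42 and 9.47 in these 13 mice, below every βENaC mouse. Over all rows, 5 mice stood apart from their groups: replicate 3 of the βENaC smoke females at 5 days, replicate 2 of the WT smoke females at 5 days, replicate 5 of the βENaC smoke females at 1 day, replicate 1 of the βENaC sham males at 1 day and replicate 3 of the βENaC sham males at 5 days. In a whole lung, fewer cells of a type and less RNA per cell cannot be told apart.

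A gene was called changed where its limma adjusted p was below 0.05 and the difference passed 1.3-fold, 0.379 on the log2 scale, in a fit of genotype, exposure and sex within each duration. At 1 day, smoke lowered 2 of the 8 genes, Pigr and Slurp1, and raised 0, where 1.07% of all rows were called. At 5 days it raised 3, Scgb3a1, Bpifa1 and Reg3g, and lowered 0, where 1.15% of all rows were called. The genotype moved more of them: 5 were higher and 1 was lower in βENaC mice at 1 day, where 1.54% of all rows were called, and 4 were higher and 1 was lower at 5 days, where 2.52% were called. The median smoke difference of the 8 genes was 0.00033 at 1 day and 0.075 at 5 days, beside 0.010 and -0.0018 over all rows. The median genotype difference was 0.67 at 1 day and 0.59 at 5 days, beside 0.0024 and -0.012 over all rows.

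**Figure D1:**
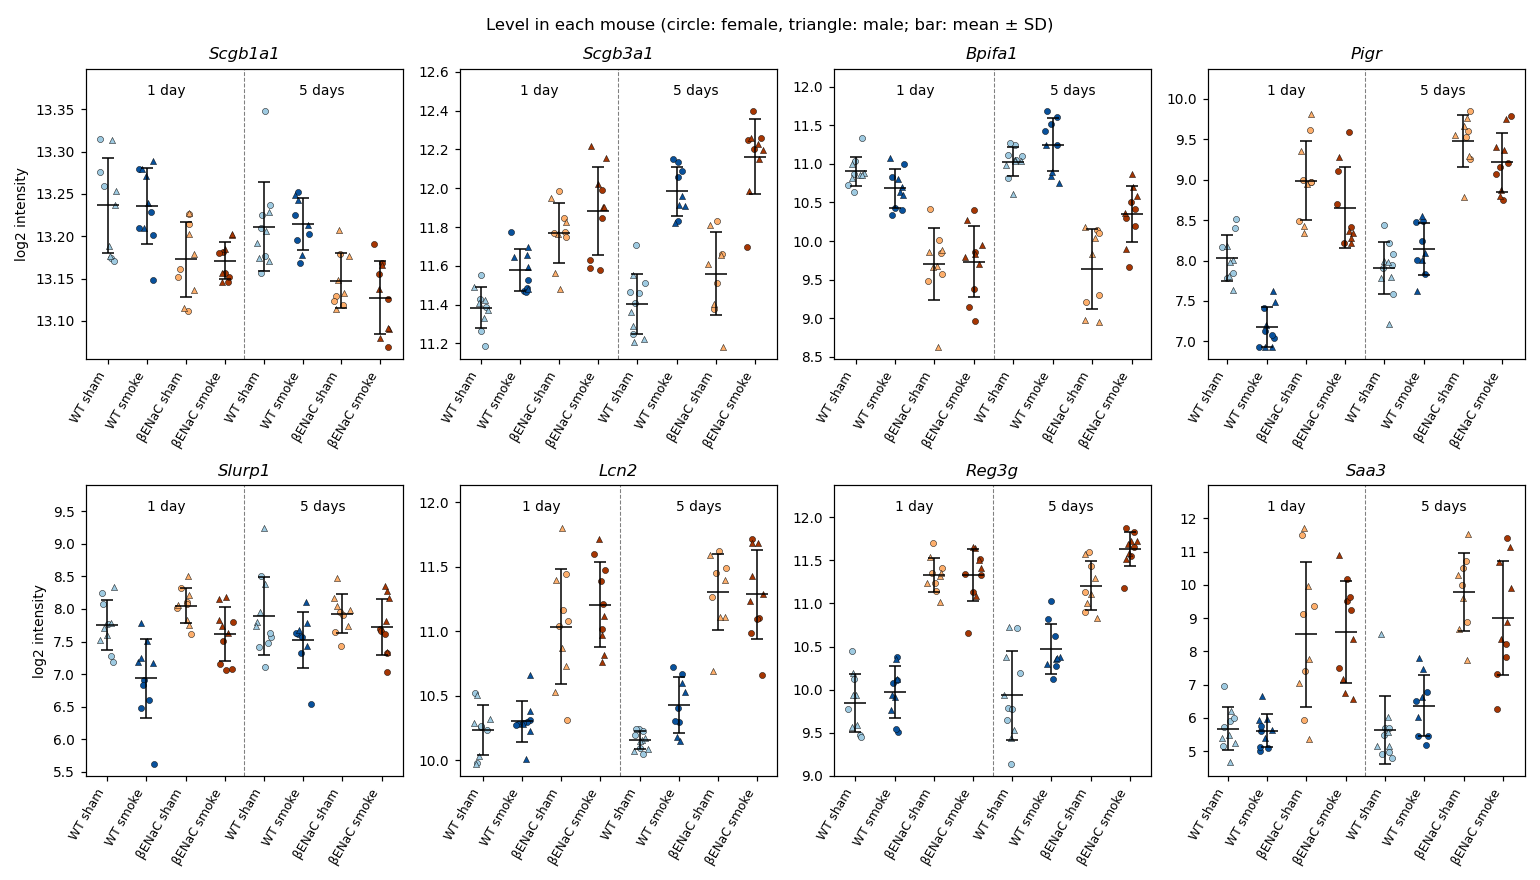
Log2 intensity of each gene (y axis, a separate scale per panel) in each of the 79 mice, by genotype, exposure and duration (x axis). Circles are females, triangles males, and bars give the mean ± SD. The 9 WT smoke mice at 5 days lie above all WT sham mice for Scgb3a1, and the 10 WT smoke mice at 1 day lie below all WT sham mice for Pigr.

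Scgb3a1 was the gene with the clearest response to 5 days of smoke. At 1 day the 10 WT sham mice ran from 11.19 through a median of 11.40 to 11.56, and the 10 WT smoke mice from 11.47 through 11.56 to 11.77. The 10 βENaC sham mice of that day ran from 11.48 through 11.77 to 11.98, and the 10 smoke mice from 11.58 through 11.90 to 12.22. Smoke and sham mice overlapped in both genotypes at 1 day. After 5 days the 11 WT sham mice ran from 11.21 through 11.41 to 11.71, and the 9 WT smoke mice from 11.82 through 11.96 to 12.15. The 9 βENaC sham mice ran from 11.18 through 11.61 to 11.83, and the 10 smoke mice from 11.70 through 12.22 to 12.40. No WT smoke mouse overlapped the WT sham mice at 5 days, and 9 of the 10 βENaC smoke mice lay above all βENaC sham mice. The remaining mouse, at 11.70, was the replicate 3 female that stood apart over all rows.

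In the fits, smoke raised Scgb3a1 by 0.59 ± 0.05 (log2, SE; adjusted p = 3.23e-10, limma), or 1.504-fold, at 5 days. The difference at 1 day was 0.15 ± 0.05 (adjusted p = 0.0335, limma), which passed the p threshold but not 1.3-fold. Within WT mice the 5-day difference was 0.58 ± 0.08 (adjusted p = 4.54e-06, limma) and within βENaC mice 0.60 ± 0.08 (adjusted p = 4.53e-06, limma). The smoke difference grew by 0.45 ± 0.10 from 1 to 5 days (adjusted p = 0.0130, limma), the only one of the 8 genes called for exposure by duration, where 0.612% of all rows were called. With genotype and sex added to that fit, each crossed with duration, the growth was 0.43 ± 0.07 (adjusted p = 0.000209, limma). βENaC mice had 0.35 ± 0.05 more Scgb3a1 than WT mice at 1 day (adjusted p = 4.03e-06, limma) and 0.17 ± 0.05 more at 5 days (adjusted p = 0.0293, limma), both under 1.3-fold.

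Across mice of the same group Scgb3a1 moved with genes of ciliated and club cells. Its 3 nearest rows by Pearson correlation of deviations from the 16 group means, over 79 mice, were Cdhr3 (r = 0.77), Cdhr4 (r = 0.76) and 4930485B16Rik (r = 0.75), and without the 2 mice farthest from the median of Scgb3a1 these were 0.69, 0.72 and 0.66. The mean log2 of 8 ciliated cell markers correlated with it at r = 0.76 (Spearman rho 0.72) and that of 9 club cell markers at r = 0.73 (rho 0.68). These points share an array per mouse, and the correlations are descriptions. The ciliated list averaged 7.71 in WT sham mice (range 7.57 to 7.90) and 7.72 in WT smoke mice (7.57 to 7.84) at 5 days, and 7.60 and 7.67 in βENaC sham and smoke mice. The club cell list averaged 9.65 (9.58 to 9.70) and 9.72 (9.59 to 9.79) in WT sham and smoke mice, and 9.34 and 9.46 in βENaC mice. Beside these means, Scgb3a1 itself averaged 11.40 and 11.98 in WT sham and smoke mice and 11.56 and 12.16 in βENaC mice. None of the 8 ciliated and none of the 9 club cell markers was called for smoke at 5 days (0 and 2 had an adjusted p below 0.05 without reaching 1.3-fold, limma). Of the 3 nearest rows, Cdhr4 rose with smoke at 5 days by 0.398 (adjusted p = 3.41e-07, limma), past 1.3-fold. Cdhr3 (0.11) and 4930485B16Rik (0.092) were not called. The part of these cells in the Scgb3a1 result was not tested.

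Scgb1a1, the club cell secretory protein, barely moved. All 79 mice lay between 13.07 and 13.35, near the top of the array scale: its mean was the 6th highest of the 31350 rows, and the highest value of the table was 13.41. Its SD within groups was 0.043, beside a median of 0.16 over all rows. Whether the upper end of the scale compressed its differences was not tested. The smoke difference was -0.0013 ± 0.019 at 1 day (95% interval -0.039 to 0.037) and -0.0088 ± 0.018 at 5 days (-0.046 to 0.029). βENaC mice had 0.064 ± 0.019 less than WT mice at 1 day (adjusted p = 0.0309, limma) and 0.074 ± 0.019 less at 5 days (adjusted p = 0.00598, limma), far under 1.3-fold. All 20 βENaC mice at 1 day and all 19 at 5 days lay below the WT mean of their exposure. The 3 rows nearest to Scgb1a1 were Faim2 (r = 0.55), Angpt1 (r = 0.54) and Bmpr2 (r = 0.54).

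Bpifa1 was low in βENaC mice at both durations. At 1 day the 10 WT sham mice ran from 10.64 through 10.87 to 11.33, and the 10 βENaC sham mice from 8.62 through 9.76 to 10.42. At 5 days the 11 WT sham mice ran from 10.60 through 11.05 to 11.27, and the 9 βENaC sham mice from 8.95 through 9.84 to 10.18. Sham mice of the 2 genotypes did not overlap at either duration. The genotype difference was -1.08 ± 0.11 at 1 day (adjusted p = 7.51e-09, limma) and -1.14 ± 0.12 at 5 days (adjusted p = 6.02e-09, limma), 2.11-fold and 2.20-fold lower in βENaC mice.

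With 1 day of smoke the 10 WT mice ran from 10.34 through 10.67 to 11.08 for Bpifa1, and the 10 βENaC mice from 8.96 through 9.81 to 10.41. Both overlapped their sham mice. Smoke left Bpifa1 uncalled at 1 day, with a difference of -0.096 ± 0.11 (adjusted p = 0.684, limma), and raised it at 5 days by 0.45 ± 0.12 (adjusted p = 0.0122, limma). The 10 βENaC smoke mice at 5 days ran from 9.66 through 10.39 to 10.87, and 8 of them lay above all 9 βENaC sham mice. The 9 WT smoke mice ran from 10.75 through 11.25 to 11.68, and 4 of them lay above all 11 WT sham mice. Within βENaC mice the 5-day difference was 0.70 ± 0.16 (adjusted p = 0.0111, limma), and within WT mice it was 0.21 ± 0.16 (adjusted p = 0.650, limma). The difference between these differences, 0.49 ± 0.23, was not called (adjusted p = 1.00, limma). The βENaC smoke median, 10.39, was below the lowest WT sham mouse of 5 days, 10.60. The nearest rows were Sult1d1 (r = 0.61), a sulfotransferase, Ndufaf7 (r = 0.59) and Cyp2a5 (r = 0.54). Sult1d1 was also lower in βENaC mice (-0.88 at 1 day and -1.17 at 5 days, adjusted p = 3.95e-09 and 3.76e-09, limma). So was Cyp2a5 (-0.49 and -0.57, adjusted p = 0.00322 and 0.00167, limma), while Ndufaf7 was not called for genotype (-0.090 and -0.076). Smoke raised Cyp2a5 by 0.46 at 1 day and 0.50 at 5 days (adjusted p = 0.00409 and 0.00840, limma). Across mice of the same group Bpifa1 correlated with the mean of 10 cartilage genes of large airways at r = 0.48 (rho 0.45), of 9 club cell markers at 0.43 (rho 0.39), of 7 basal cell markers at 0.36 (rho 0.44) and of 8 ciliated cell markers at 0.33 (rho 0.31). The mean values of 9 of the 10 cartilage genes and 5 of the 7 basal cell markers lay below the lowest median of any array. The part of these tissues in the Bpifa1 result was not tested.

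Reg3g had the smallest adjusted p of the 8 genes for genotype at 1 day. The 10 WT sham mice at 1 day ran from 9.45 through 9.86 to 10.45, and the 10 βENaC sham mice from 11.02 through 11.34 to 11.70. With smoke the WT mice ran from 9.50 through 10.01 to 10.38, and the βENaC mice from 10.66 through 11.38 to 11.66. At 5 days the 11 WT sham mice ran from 9.14 through 9.79 to 10.72, and the 9 βENaC sham mice from 10.83 through 11.13 to 11.59. No βENaC mouse overlapped the WT mice of its exposure at either duration. The genotype difference was 1.42 ± 0.09 at 1 day (adjusted p = 1.91e-15, limma), or 2.68-fold, and 1.22 ± 0.11 at 5 days (adjusted p = 1.79e-10, limma), or 2.33-fold.

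After 5 days of smoke the 9 WT mice ran from 10.13 through 10.37 to 11.03 for Reg3g and the 10 βENaC mice from 11.17 through 11.68 to 11.87. All 9 WT and 9 of 10 βENaC smoke mice lay above the sham mean of their genotype, with overlapping ranges. Smoke raised Reg3g by 0.48 ± 0.11 at 5 days (adjusted p = 0.00329, limma), or 1.398-fold, and the difference at 1 day was 0.060 ± 0.088 (adjusted p = 0.758, limma). Within WT mice at 5 days it was 0.54 ± 0.15 (adjusted p = 0.0521, limma), and this became a call when any 1 of 5 mice was left out, with adjusted p down to 0.0134 (limma): WT sham female replicate 4, WT sham male replicates 1 and 3, WT smoke female replicate 2 or βENaC smoke female replicate 3. Within βENaC mice it was 0.42 ± 0.16 (adjusted p = 0.204, limma).

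Across mice of the same group Reg3g moved with genes of goblet and other airway cells. The nearest rows were Bpifb1 (r = 0.71), an airway relative of Bpifa1, the trefoil factor Tff2 (r = 0.69) and Oit1 (r = 0.69). The mean of 10 goblet cell markers correlated with it at r = 0.58 (rho 0.55). That of 8 ciliated cell markers had r = 0.42 (rho 0.45), of 7 basal cell markers 0.3997 (rho 0.44), of 10 cartilage genes of large airways 0.395 (rho 0.36) and of 9 club cell markers 0.36 (rho 0.35). The mean values of 9 of the 10 cartilage genes and 5 of the 7 basal cell markers lay below the lowest median of any array. In βENaC mice 7 of the 10 goblet cell markers were higher at both durations, led by Gp2, at 2.91 ± 0.13 and 3.29 ± 0.14. With 1 day of smoke 1 of the 10 rose, Tff2. With 5 days 2 of the 10 rose, Agr2 by 0.67 ± 0.13 and Gp2 by 0.48 ± 0.14, and Clca1 fell by 1.61 on the log2 scale (SE 0.48; adjusted p = 0.0317, limma). The share of any of these cells in the Reg3g result was not tested.

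The promoters of the 3 genes that rose with 5 days of smoke are shown because the genes moved together in that comparison. Each line gives the 200 bases before the start site, 5′ to 3′ on the strand of the gene, from RefSeq on GRCm38.p6. Capitals mark matches, on either strand, to letters bound by AP-1 (TGANTCA), STAT factors (TTCNNNGAA), NF-kB or the TATA box (TATAAA). The spans are chr11:49663395-49663594 (+) for Scgb3a1, chr2:154142680-154142879 (+) for Bpifa1 and chr6:78468875-78469074 (-) for Reg3g.
Scgb3a1: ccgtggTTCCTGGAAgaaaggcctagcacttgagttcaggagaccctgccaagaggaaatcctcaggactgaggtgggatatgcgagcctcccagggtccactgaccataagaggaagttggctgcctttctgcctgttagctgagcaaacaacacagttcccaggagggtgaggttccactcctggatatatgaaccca
Bpifa1: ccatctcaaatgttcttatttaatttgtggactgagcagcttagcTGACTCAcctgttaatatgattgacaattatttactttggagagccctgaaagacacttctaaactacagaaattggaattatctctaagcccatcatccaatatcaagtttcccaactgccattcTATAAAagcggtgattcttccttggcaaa
Reg3g: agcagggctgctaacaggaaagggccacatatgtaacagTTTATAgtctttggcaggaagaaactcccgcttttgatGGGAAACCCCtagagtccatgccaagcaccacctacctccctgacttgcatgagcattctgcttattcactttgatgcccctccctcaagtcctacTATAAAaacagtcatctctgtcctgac
Scgb3a1 has a STAT match 194 bases before its start, Bpifa1 an AP-1 match at 155 and a TATA match at 29, and Reg3g an NF-kB match at 123. Reg3g also has matches to the TATA letters at 27 and, on the other strand, at 161. Of 32851 promoters of the same table, from 250 bases before to 50 after the start, 8.30% held the STAT letters, 7.81% the AP-1 letters, 4.51% the NF-kB letters and 13.6% the TATA box. Of 6 of the 8 genes with an entry there, 0 held the core letters of the aryl hydrocarbon receptor (GCGTG, 32.4% of all promoters) or of NRF2 (TGACNNNGC, 12.4%). The letters of C/EBP factors were also searched and are not marked: 4 of the 6 genes and 40.7% of all promoters held them. The STAT letters were held by 2 of the 6, Scgb3a1 and Pigr. A match is a description of these letters and not of binding.

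Pigr fell within a day of smoke in WT mice. The 10 WT sham mice at 1 day ran from 7.63 through 7.99 to 8.51, and the 10 WT smoke mice from 6.93 through 7.11 to 7.63. The 10 βENaC sham mice ran from 8.34 through 8.97 to 9.81, and the 10 smoke mice from 8.21 through 8.39 to 9.59. The highest WT smoke mouse lay just below the lowest WT sham mouse, and the βENaC ranges overlapped. In the fit smoke lowered Pigr by 0.59 ± 0.13 at 1 day (difference -0.59; adjusted p = 0.00131, limma), or 1.51-fold. Within WT mice the difference was -0.85 ± 0.17 (adjusted p = 0.00228, limma), 1.80-fold, and within βENaC mice -0.34 ± 0.17 (adjusted p = 0.312, limma). The difference between genotypes, 0.51 ± 0.25 (95% interval 0.017 to 1.01), was not called (adjusted p = 0.704, limma).

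The smoke difference of Pigr at 5 days was -0.011 ± 0.11 (95% interval -0.23 to 0.21). The 11 WT sham mice ran from 7.22 through 7.94 to 8.44, and the 9 WT smoke mice from 7.62 through 8.09 to 8.55. The 9 βENaC sham mice ran from 8.79 through 9.55 to 9.84, and the 10 smoke mice from 8.75 through 9.18 to 9.78. Sham and smoke mice overlapped in both genotypes, with 7 of 9 WT smoke mice above the WT sham mean and 8 of 10 βENaC smoke mice below theirs. The change of the smoke difference from 1 to 5 days was 0.69 ± 0.33 and was not called (adjusted p = 0.418, limma; 0.0586 with genotype and sex added).

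By genotype Pigr was higher in βENaC mice by 1.21 ± 0.13 at 1 day (adjusted p = 7.67e-09, limma) and 1.34 ± 0.11 at 5 days (adjusted p = 1.67e-11, limma), 2.32-fold and 2.52-fold. Plasma cells make the immunoglobulin that Pigr carries, but its genes Igha and Ighm had no row. Of 7 plasma cell genes measured, 2, Tnfrsf17 and Tnfrsf13b, had means below the lowest median of any array. For genotype 0 of the 7 were called at 1 day and 1 at 5 days. That gene was Jchain, which joins polymeric immunoglobulin: 0.86 ± 0.28 at 1 day (adjusted p = 0.0633, limma) and 1.59 ± 0.18 at 5 days (adjusted p = 6.07e-08, limma). The lowest of the 7 was Prdm1, at -0.19 ± 0.06 and -0.16 ± 0.06. Smoke called 0 of the 7 at either duration, with Mzb1 at -0.23 ± 0.10 the lowest and Prdm1 at 0.099 ± 0.060 the highest at 1 day.

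Slurp1 also fell at 1 day. The 10 WT sham mice ran from 7.19 through 7.74 to 8.33, and the 10 WT smoke mice from 5.62 through 7.04 to 7.78. The 10 βENaC sham mice ran from 7.62 through 8.07 to 8.51, and the 10 smoke mice from 7.06 through 7.69 to 8.19. The ranges overlapped, with 6 of 10 WT and 4 of 10 βENaC smoke mice below all sham mice of their genotype. Smoke lowered Slurp1 by 0.63 ± 0.12 (difference -0.63; adjusted p = 0.000382, limma), or 1.54-fold. Within WT mice the difference was -0.82 ± 0.17 (adjusted p = 0.00245, limma) and within βENaC mice -0.44 ± 0.17 (adjusted p = 0.145, limma). The difference between genotypes, 0.38 ± 0.21, was not called (adjusted p = 0.739, limma).

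After 5 days the smoke difference of Slurp1 was -0.28 ± 0.12 (adjusted p = 0.196, limma). The 11 WT sham mice ran from 7.11 through 7.75 to 9.24, and the 9 WT smoke mice from 6.54 through 7.61 to 8.10. The 9 βENaC sham mice ran from 7.43 through 7.96 to 8.47, and the 10 smoke mice from 7.03 through 7.67 to 8.35. These ranges overlapped in both genotypes. βENaC mice had 0.49 ± 0.12 more Slurp1 than WT mice at 1 day (adjusted p = 0.00727, limma), or 1.404-fold, and 0.079 ± 0.12 more at 5 days (adjusted p = 0.775, limma). The change of the genotype difference, -0.41 ± 0.17, was not called (adjusted p = 0.818, limma).

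Slurp1 was the only member called for sex, at 1 day. The smoke-exposed females at 1 day ran from 5.62 through 6.98 to 7.80, and the smoke-exposed males from 7.17 through 7.69 to 8.19, with 10 mice in each. The sham females ran from 7.19 through 8.04 to 8.32, and the sham males from 7.52 through 7.81 to 8.51, also with 10 in each. In the fit males had 0.40 ± 0.12 more than females at 1 day (adjusted p = 0.0240, limma), where 0.836% of all rows were called. This call was lost when any 1 of 5 mice was left out, as the difference went under 1.3-fold (down to 0.33): βENaC smoke male replicates 1 and 2, WT sham male replicate 2, WT smoke male replicate 1 or WT smoke female replicate 5. The sex difference at 5 days was 0.48 ± 0.12 (adjusted p = 0.0505, limma), just outside the threshold, and 0 of the 8 genes were called, where 0.198% of all rows were called. An unadjusted p below 0.05 was found for 2 of the 8 and for 11.3% of all rows. It became a call when any 1 of 10 mice was left out: WT sham female replicate 3, WT sham male replicates 3 and 4, WT smoke female replicate 4, WT smoke male replicate 5, βENaC sham female replicate 3, βENaC sham male replicates 3 and 5, βENaC smoke female replicate 3 or βENaC smoke male replicate 5. The smoke difference was 0.68 ± 0.21 less negative in males than in females at 1 day, which was not called (adjusted p = 0.592, limma), where 0.00638% of all rows were called for exposure by sex. For exposure by sex at 1 day 3 of the 8 genes and 6.33% of all rows had an unadjusted p below 0.05 (limma). Besides Slurp1 these were Scgb3a1, at 0.22 ± 0.09, and Bpifa1, at 0.45 ± 0.21, neither called. At 5 days it was 0 of the 8 genes and 3.46% of all rows.

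The means of club, ciliated, basal and goblet cell markers had r = -0.027, 0.015, 0.028 and 0.056 with Slurp1 within groups. The rows nearest to Slurp1 within groups were Pkhd1l1 (r = 0.66), Rpp25 (r = 0.59) and Aldh1a2 (r = 0.56). Aldh1a2 makes retinoic acid and is expressed in mesothelium, the cell layer that covers the lung. A list of 5 mesothelial genes, chosen after these values were seen, correlated with Slurp1 at r = 0.66 (rho 0.61), and at 0.58 without the 2 mice farthest from the median. The list holds Aldh1a2, so this correlation follows in part from the choice. The list averaged 7.23 in WT sham mice (range 6.90 to 7.38) and 6.94 in WT smoke mice (6.74 to 7.27) at 1 day, and 7.39 and 7.27 in βENaC sham and smoke mice. Of its genes, Msln differed with smoke at 1 day by -0.070 ± 0.058, Upk3b by -0.30 ± 0.06 and Aldh1a2 by -0.37 ± 0.06. By genotype at 1 day Msln was 0.47 ± 0.06 and Prg4 0.48 ± 0.13 higher in βENaC mice. Upk3b, at 0.069 ± 0.062, Wt1, at 0.044 ± 0.076, and Aldh1a2, at 0.14 ± 0.06, differed less. At 5 days the genotype difference was 0.092 ± 0.074 for Msln and -0.20 ± 0.19 for Prg4. The part of these cells, or of the amount of pleura in each piece of lung, in the Slurp1 differences was not tested.

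Lcn2 and Saa3 differed by genotype and not with smoke. For Lcn2 at 1 day the 10 WT sham mice ran from 9.97 through 10.26 to 10.52, and the 10 βENaC sham mice from 10.31 through 11.06 to 11.80. At 5 days the 11 WT sham mice ran from 10.05 through 10.16 to 10.25, and the 9 βENaC sham mice from 10.70 through 11.40 to 11.62. The sham mice of the genotypes overlapped at 1 day in 1 βENaC mouse and not at 5 days. The genotype difference of Lcn2 was 0.85 ± 0.09 at 1 day (adjusted p = 2.33e-08, limma) and 1.01 ± 0.08 at 5 days (adjusted p = 1.32e-11, limma), 1.81-fold and 2.01-fold. With 1 day of smoke the 10 WT mice ran from 10.01 through 10.29 to 10.66, and the 10 βENaC mice from 10.76 through 11.16 to 11.71. With 5 days the 10 βENaC mice ran from 10.66 through 11.26 to 11.72. The smoke difference was 0.12 ± 0.09 (adjusted p = 0.512, limma) at 1 day and 0.13 ± 0.08 (adjusted p = 0.420, limma) at 5 days. Within WT mice at 5 days it was 0.27 ± 0.11 (adjusted p = 0.244, limma), with the 9 smoke mice from 10.15 through 10.41 to 10.73 and 7 of them above all 11 sham mice.

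Saa3 had the largest genotype difference of the 8 genes and the widest spread. At 1 day the 10 WT sham mice ran from 4.69 through 5.61 to 6.96, and the 10 βENaC sham mice from 5.37 through 8.44 to 11.70. At 5 days the 11 WT sham mice ran from 4.80 through 5.48 to 8.53, and the 9 βENaC sham mice from 7.73 through 10.001 to 11.54. The genotypes overlapped at both durations, and the βENaC sham mice of 1 day spanned more than 6 log2 units. Smoke-exposed WT mice ran from 4.99 through 5.62 to 6.67 at 1 day and from 5.17 through 6.496 to 7.80 at 5 days. Smoke-exposed βENaC mice ran from 6.56 through 8.80 to 10.91 at 1 day and from 6.27 through 8.62 to 11.41 at 5 days. These ranges lay within or across those of the sham mice. The genotype difference was 2.90 ± 0.42 at 1 day (adjusted p = 7.23e-06, limma), 7.49-fold, and 3.34 ± 0.38 at 5 days (adjusted p = 5.02e-08, limma), 10.1-fold. Its SD within groups was 1.31, beside a median of 0.16 over all rows, and the smoke differences were 0.0019 ± 0.42 at 1 day (95% interval -0.84 to 0.84) and 0.018 ± 0.38 at 5 days (-0.76 to 0.79). Smoke differences of Saa3 inside these intervals were not detectable with this number of mice. At 5 days the smoke difference was 0.73 ± 0.52 in WT and -0.73 ± 0.53 in βENaC mice, and the difference between them, -1.55 ± 0.73, was not called (adjusted p = 1.00, limma).

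**Figure D2:**
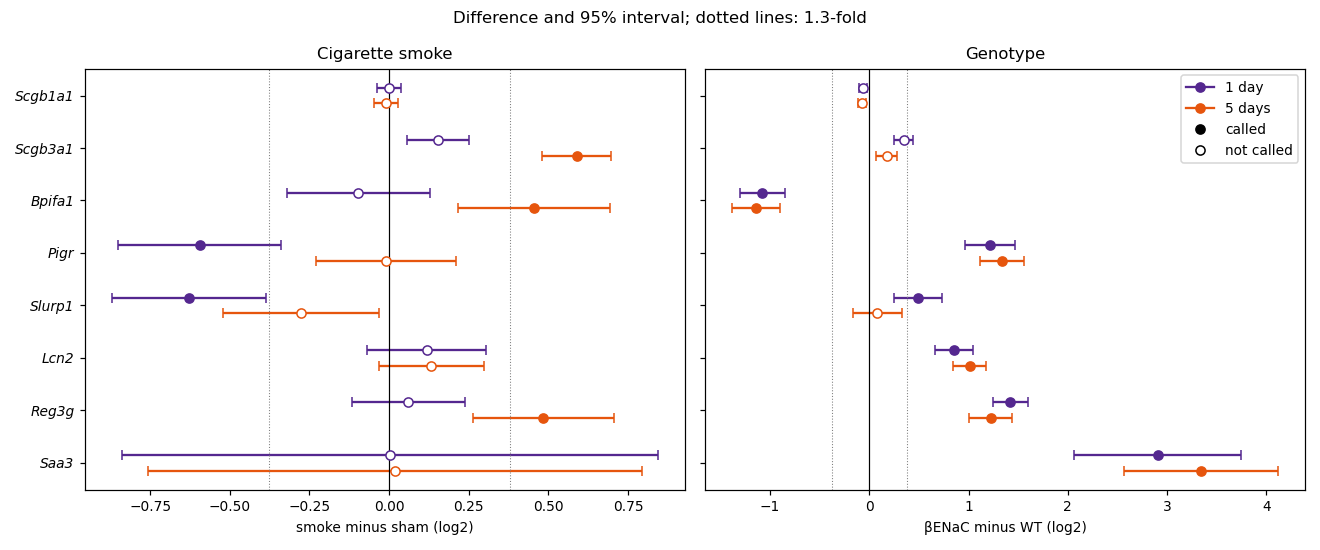
Smoke minus sham (left) and βENaC minus WT (right) for each gene (y axis) as log2 differences with 95% intervals (x axes, on different scales) at 1 day and 5 days. Filled points were called, and dotted lines mark 1.3-fold. Pigr and Slurp1 lie left of 0 with smoke at 1 day, and Scgb3a1, Bpifa1 and Reg3g lie right of it at 5 days.

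Tests of whether smoke acted differently by genotype called 0 of the 8 genes at either duration, with limma or with an ordinary linear model. Of all rows 0.00638% were called at 1 day and 0.0% at 5 days. At 1 day 1 of the 8 genes, Pigr, had an unadjusted p below 0.05, as did 6.98% of all rows, and at 5 days 4 did, Lcn2, Pigr, Bpifa1 and Saa3, as did 3.82% of all rows. The genotype differences were not called to change between durations for any of the 8, nor for any other row (0.0% of rows called). For this change 2 of the 8, Slurp1 and Scgb3a1, and 6.07% of all rows had an unadjusted p below 0.05. Taken separately, smoke called 2 of 8 in WT mice at 1 day (1.28% of all rows), 0 of 8 in βENaC mice at 1 day (0.772% of all rows called; 1 of 8 and 16.8% of all rows at an unadjusted p below 0.05), 1 of 8 in WT mice at 5 days (0.915% of all rows) and 2 of 8 in βENaC mice at 5 days (0.797% of all rows). A call in 1 genotype and not in the other is not a difference between them.

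Other secreted defence genes of the airway, 22 with a row, showed the genotype far more than smoke. In βENaC mice 6 were higher and 3 lower at 1 day, from Lypd2 at -0.50 ± 0.08 to lactoferrin, Ltf, at 0.87 ± 0.12, and 7 were higher and 2 lower at 5 days, from Lypd2 at -0.68 ± 0.06 to the mucin Muc5b at 0.78 ± 0.09. With smoke 1 rose at 1 day, Tff2, by 0.62 ± 0.14 (adjusted p = 0.00316, limma), while the lowest, Saa1, was at -0.13 ± 0.16. At 5 days 1 fell, Bpifa2, by 1.00 on the log2 scale (SE 0.16; adjusted p = 4.13e-05, limma), and the highest, Wfdc2, was at 0.21 ± 0.04 (adjusted p = 0.00164, limma), under 1.3-fold. So Bpifa2, the salivary relative of Bpifa1, and Bpifa1 were called in opposite directions at 5 days. The mean values of 9 of the 22 genes, Bpifa2 and Saa1 among them, lay below the lowest median of any array. For Bpifa2 the mean was 4.25, beside 4.44 for that median, so its fall was measured at the dim end of the scale. The list's median difference was 0.18 and 0.16 for genotype at 1 and 5 days, and 0.027 and 0.021 for smoke.

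Of 14 cytokines and co-induced genes that act upstream of Lcn2, Reg3g and Saa3 or rise with them, 5 were higher in βENaC mice at each duration and 0 lower. The highest was the neutrophil chemokine Cxcl5, at 1.46 ± 0.22 and 1.47 ± 0.14. The mean values of 5 of the 14, Il17a, Il17f, Il6, Cxcl1 and Csf3, lay below the lowest median of any array, so a change in them may not have been detectable. With smoke 0 of the 14 were called at 1 day, when Il1b was the lowest at -0.65 ± 0.25 (adjusted p = 0.102, limma) and Cxcl5 the highest at 0.094 ± 0.22. At 5 days Il1b fell by 0.62 on the log2 scale (SE 0.17; adjusted p = 0.0159, limma), and Cxcl5, at 0.13 ± 0.14, was again the highest.

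**Figure D3:**
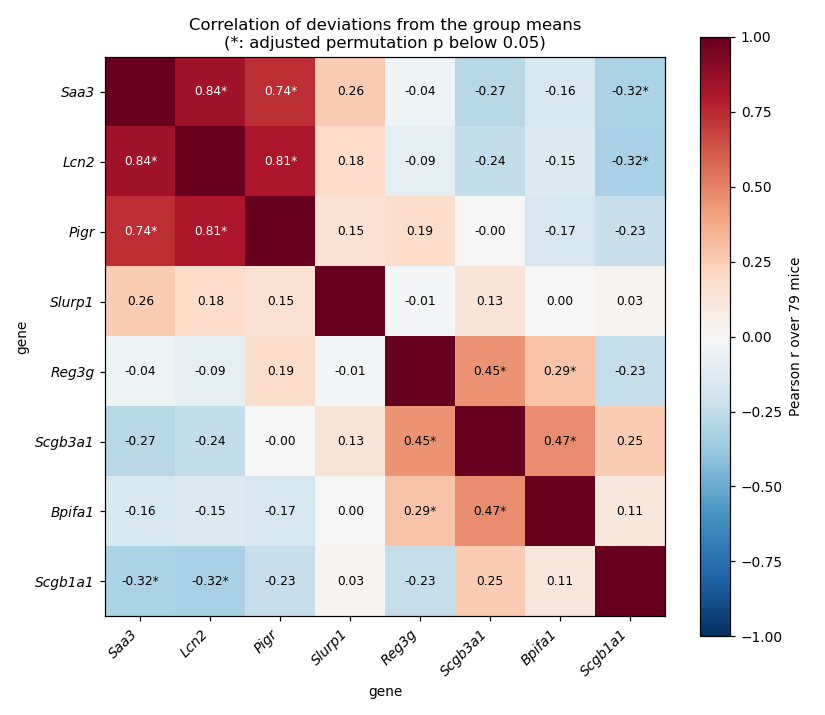
Pearson correlation between each pair of the 8 genes (both axes) over 79 mice, of log2 deviations from the mean of each mouse's group of genotype, exposure, sex and duration. Asterisks mark pairs with an adjusted permutation p below 0.05. Saa3, Lcn2 and Pigr form a block at 0.74 to 0.84, and Scgb3a1 correlates with Bpifa1 and Reg3g.

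Mice of the same group differed from each other in a patterned way. Of the 28 pairs of genes, 8 correlated across the 79 mice after removal of the group means (two-sided permutation test within groups, 100000 resamples, Benjamini-Hochberg over 28 pairs), 6 of them positively. Lcn2 and Saa3 had r = 0.84 (Spearman rho 0.75; permutation p = 1e-05 for both, the smallest these resamples can give, adjusted 9.33e-05). Pigr and Lcn2 had r = 0.81 (rho 0.75) and Pigr and Saa3 r = 0.74 (rho 0.66), with those same p-values by permutation. Without the 2 mice farthest from the median of the first gene these were 0.81, 0.77 and 0.68. Within βENaC mice they were 0.93, 0.90 and 0.83, and within WT mice 0.46, 0.58 and 0.45. At 1 and 5 days Lcn2 and Saa3 had r = 0.89 and 0.77.

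A second set was Scgb3a1 with Bpifa1 (r = 0.47, rho 0.43; adjusted permutation p = 0.00409) and with Reg3g (r = 0.45, rho 0.49; adjusted permutation p = 0.00133), and Bpifa1 with Reg3g (r = 0.29, rho 0.31; adjusted permutation p = 0.0266). Without the 2 farthest mice these were 0.39, 0.40 and 0.28. The pair Scgb3a1 and Bpifa1 had r = 0.23 at 1 day and 0.69 at 5 days. Scgb1a1 was negatively correlated with Lcn2 (r = -0.32, rho -0.32; adjusted permutation p = 0.0266) and with Saa3 (r = -0.32, rho -0.33; adjusted permutation p = 0.0266), and -0.34 and -0.35 without the 2 farthest mice. Slurp1 was in none of the 8 pairs. Reg3g, which like Lcn2 and Saa3 was higher in βENaC mice, had r = -0.089 with Lcn2 and -0.043 with Saa3, for which the adjusted permutation p were 0.433 and 0.809. These pooled values cover opposite signs by genotype. Within WT mice Reg3g had r = 0.080 with Lcn2 and 0.43 with Saa3, and within βENaC mice -0.25 and -0.39.

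The rows nearest to Lcn2, Saa3 and Pigr within groups included genes of macrophages, such as Cd68 and Gpnmb, and of the acute-phase response, such as Lrg1 and C3. Those of Lcn2 were Cd68 (r = 0.88), Lrg1 (r = 0.88) and Gpnmb (r = 0.88). Those of Saa3 were Timp1 (r = 0.88), Ctsk (r = 0.87) and C3 (r = 0.86), and those of Pigr were Lrg1 (r = 0.82), Lcn2 (r = 0.81) and Clec5a (r = 0.79). A list of 4 macrophage genes, Cd68, Gpnmb, Ctsk and Trem2, was chosen after their values were seen. It correlated with Lcn2 at r = 0.89, Saa3 at 0.87 and Pigr at 0.76. Cd68 and Gpnmb are rows nearest to Lcn2 and Ctsk to Saa3, so the first 2 correlations follow in part from the choice. The 8 markers of alveolar macrophages had r = 0.41, 0.39 and 0.45 with Lcn2, Saa3 and Pigr. The list of 14 cytokines and co-induced genes had 0.72, 0.72 and 0.67. In the same order, club cell markers had -0.47, -0.54 and -0.27, and ciliated cell markers -0.40, -0.45 and -0.12. Goblet cell markers had 0.30, 0.39 and 0.56, and basal cell markers 0.27, 0.19 and 0.26. The mean of the 4 macrophage genes was 6.87 in WT sham mice at 1 day (range 6.604 to 7.10) and 8.23 in βENaC sham mice (6.96 to 10.17), and 6.89 (6.74 to 7.05) and 8.90 (7.99 to 9.90) at 5 days. WT smoke mice at 5 days had 7.60 (7.11 to 8.05), above all WT sham mice. Of 8 markers of alveolar macrophages 3 were higher and 2 lower in βENaC mice at each duration, and of 9 neutrophil markers 0 were called for genotype at either (1 and 0 had an adjusted p below 0.05, limma). With smoke 1 of the neutrophil markers, Retnlg, fell at 1 day by 0.66 on the log2 scale (SE 0.19), and 2 of the alveolar macrophage markers, Fabp1 and Ear2, fell at 5 days. The part of these cells in the genotype differences of Lcn2, Saa3 and Pigr was not tested.

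**Figure D4:**
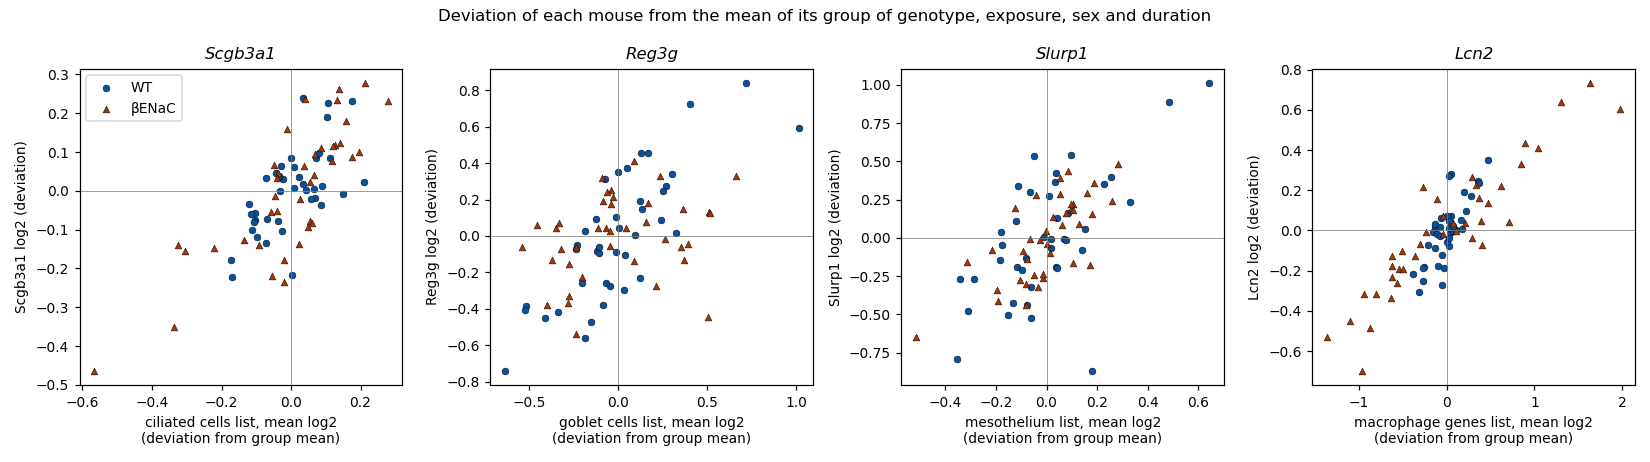
Each point is 1 of 79 mice (WT circles, βENaC triangles), as its log2 deviation from its group's mean, for a member (y axis) against the mean of a list of cell type genes (x axis). Correlations are 0.76 for Scgb3a1 with ciliated cell markers, 0.58 for Reg3g with goblet cell markers, 0.66 for Slurp1 with mesothelial genes and 0.89 for Lcn2 with macrophage genes. The last 2 lists were chosen after their values were seen, and each holds at least 1 of the rows nearest to its member.

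Club cell markers went the way of Scgb1a1 and Bpifa1 by genotype. Of 9 measured, 1 was lower in βENaC mice at 1 day and 3 at 5 days, and 7 had an adjusted p below 0.05 with lower values at each duration (limma). Lypd2 was the lowest at both, as given above, and 0 were higher. Of 8 ciliated cell markers 0 were called for genotype or smoke at either duration, and 3 had lower values with smoke at 1 day with an adjusted p below 0.05, under 1.3-fold. Of 7 basal cell markers 1 was higher for each factor at each duration. Of 10 cartilage genes of large airways 0 were called for genotype or smoke, with at most 1 at an adjusted p below 0.05. The mean values of 9 of these 10 and of 5 of the 7 basal cell markers lay below the lowest array median. Squamous epithelium, 8 genes, had 2 higher in βENaC mice at each duration and 0 called for smoke. The mean values of 6 of these 8 lay below the lowest array median. At 5 days the squamous list ran from 3.80 to 7.05 in βENaC smoke mice, with an SD of 1.00 beside 0.055 in βENaC sham mice. For alveolar type 2 cells 0 of 8 markers were called for genotype or smoke.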

How the data were processed

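The deposited table holds log2 intensities for 79 whole lungs on an Affymetrix mouse gene array. Per the labels and the methods, the authors applied RMA with a correction for probe sequence, quantile normalization and median polish (Expression Console 1.4, Partek 6.6), dropped 1 array and ran the samples on 1 plate. The number of arrays limits the precision. No column was left out, and 21837 of 31350 rows had a symbol from the study's tables or RefSeq. Groups came from the titles. Fits with limma 3.58.1 (R 4.3.3) used genotype, exposure and sex within each duration, or exposure crossed with duration, with Benjamini-Hochberg adjustment over all rows, and were tested on simulated data. Interactions were called by adjusted p alone. Correlations used Python 3.11.15 and numpy 2.4.6. The 8 genes, the gene lists and the tests were chosen with earlier results of these data known. Named list genes are those with the highest and lowest difference in a comparison, and 3 nearest rows per gene. Other genes named to spell out a count were chosen after their values were seen. Replicate numbers were not treated as pairs in the main fits. The median correlation was 0.010 for mice with the same number and 0.00035 for mice with other numbers. Of 266 pairs of mice with the same number 42 correlated over 0.1, and a count for other numbers is not given. Alternatives are given in the closing section.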

Additional observations from a re-analysis of the deposited data

Results flagged for a closer look

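The groups of 4 to 6 mice were screened for a mouse whose gap to its nearest neighbour made up most of its group's range. Of 128 sets of a gene in a group 11 had such a mouse, where chance gives about 1 in 20. For Scgb3a1 these were the βENaC smoke female replicate 3 at 5 days (11.70, neighbour 12.20), the WT smoke female replicate 4 at 1 day (11.77, neighbour 11.53) and the WT smoke female replicate 1 at 5 days (11.83, neighbour 12.06). For Bpifa1 they were the βENaC sham male replicate 2 at 1 day (8.62, neighbour 9.66) and the WT sham male replicate 5 at 5 days (10.60, neighbour 10.99). That WT sham male was also low for Pigr (7.22, neighbour 7.79), and the βENaC smoke male replicate 1 at 1 day was high for it (9.29, neighbour 8.37). Slurp1 was high in the WT sham female replicate 3 at 5 days (8.51, neighbour 7.62) and low in the WT smoke female replicate 2 at 5 days (6.54, neighbour 7.32). Saa3 was high in the WT sham male replicate 1 at 5 days (8.53, neighbour 6.04), and Scgb1a1 in the βENaC sham female replicate 1 at 5 days (13.18, neighbour 13.13).

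The smoke difference of Scgb3a1 was greater at 5 days than at 1 day by 0.45 (log2), the test of the difference itself being given in the report.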

How the results depend on the processing

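Of the 8 genes' differences in 14 comparisons, 0 reversed with a call under any alternative. The counts for genotype, for exposure at 1 day and for exposure by duration stayed as reported with an ordinary linear model, arrays centered on their median, quantile normalization, the dimmest 30% of rows left out, array weights, a trended robust prior, the replicate block and each mouse left out. They also did with 1 fit over all mice for genotype and for exposure at 1 day; that fit was not run for exposure by duration. Without a fold threshold the counts for genotype became 8 and 7, and that for exposure at 1 day 3; with 1.5-fold that for genotype at 1 day became 5. Calls that depended on the setting were those of Slurp1 for sex and of Reg3g within WT mice at 5 days. Members called for sex at 1 day went from 1 to 0 with quantile normalization (Slurp1 at 0.35) and with a 1.5-fold threshold, and were 0 to 1 with each mouse left out. For sex at 5 days the count went from 0 to 1 with arrays centered, without the dimmest rows, with array weights and in 1 fit over all mice (Slurp1 at 0.48 to 0.49), and was 0 to 1 with each mouse left out. Within WT mice at 5 days, smoke called 1, and 2 with arrays centered, without the dimmest rows and, added after seeing the data, without the 5 mice that stood apart (Reg3g at 0.54 to 0.59), 0 with a 1.5-fold threshold, and 1 to 2 with each mouse left out. For exposure at 5 days a 1.5-fold threshold left 1 of 3. With the replicate block, as without it, smoke called 2 at 1 day and 3 at 5 days, and the block changed no other count. The correlated pairs, 8, kept their sign without the 2 farthest mice. Other rows of a gene could not be tried, since each member has 1 row. The spread of Saa3 between mice limits what could be seen for it. The cause of each change was not tested.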
